A study of Mus musculus with 4 samples.

Results

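Receptors at the cell surface, together with the guidance cues, growth factors and cytokines that bind them, were examined in 46C mouse embryonic stem cells (mESCs) after knockdown of the homeobox gene *Rhox6*. Members were picked by a fixed pattern on gene symbols. It takes the usual name stems of G protein-coupled receptors, interleukins, chemokines, the tumor necrosis factor (TNF) superfamily, ephrins, semaphorins, netrins, endothelins, Notch genes, receptor phosphatases, and some growth factors and receptor tyrosine kinases from the deposited table, and *Fgf2* and *Fgfr3* were left out. Genes of these kinds under other names, such as *Tek*, *Axl*, *Vegfa* and *Ngfr*, were not taken and are described further on. This gave 33 of the 920 listed genes, of which 21 are named as receptors, 10 are named as ligands and the remaining genes are *Htra1*, a secreted serine protease caught by the pattern for serotonin receptors, and *Fgfbp1*, which encodes a carrier of fibroblast growth factors (FGFs).

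46C is an mESC line that carries a reporter in the *Sox1* locus. Cells received lentivirus with a *scramble* hairpin or with *Rhox6* shRNA and were harvested after 24 h in medium with serum, and 2 RNA-seq libraries were made per group. Both groups therefore carried a lentiviral hairpin vector, and the labels do not say which *Rhox6* hairpin each knockdown library carried. The table lists only genes that the authors had called as differential between these same libraries, and *Rhox6* is not among them, so the knockdown could not be checked here.

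Each gene has 1 normalized expression level per library, on a scale whose unit the table does not name. Whether it is corrected for gene length is not stated, so levels are compared between libraries and not between genes, and no read counts give the depth behind a level. Groups were compared by limma on log2(level + 1) over all 920 listed genes with Benjamini-Hochberg adjustment, and a gene is called higher or lower at an adjusted p under 0.05. As the genes had been selected on these libraries, a call describes them and is not independent evidence of a change. The labels do not tell whether replicate libraries stem from separate cultures. The p-values thus reflect only how far levels scatter in the 4 libraries, possibly for technical reasons. For each gene, limma moderates this scatter by drawing it toward a trend over all 920 preselected genes. The standard errors given here are moderated in the same way. The smallest p that a two-sided exact permutation test allows here is 0.333.

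Ligands and receptors of these families carry signals between neighboring cells. Ephrins and their Eph receptors signal on contact, netrins and semaphorins steer migrating cells and axons, and Notch receptors respond to ligands on the adjacent cell. Growth factors of the transforming growth factor-β (TGF-β) superfamily act through serine/threonine kinase receptors, whereas G protein-coupled receptors pass signals from amines, lipids and peptides to second messengers. In mESCs, cytokines of the interleukin-6 type, LIF among them, sustain self-renewal through the receptor chain gp130.

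Of the 33 genes, 22 rose and 9 fell in *Rhox6* shRNA mESCs, and *Il12rb1* and *Plxnd1* did not pass. In percent, 66.7% were higher and 27.3% lower, against 53.7% and 42.9% of all listed genes. The median difference of log2(level + 1) was 0.69 over these genes and 0.56 over all listed genes. Without *Htra1*, 21 of 32 were higher and 9 lower. Both *Rhox6* shRNA libraries lay above both *scramble* libraries for the 22 higher genes and below both for the 9 lower genes. Such separation was usual in this preselected table. Of all 920 listed genes, 498 lay above and 407 below in this way, and only 15 overlapped. In bulk RNA, fewer cells of a type and less RNA per cell cannot be told apart.

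In the endothelin and ephrin families a ligand and a receptor changed in the same direction, and the promoters of these genes are shown for that reason. The vasoconstrictor peptide gene *Edn1* and the endothelin receptor gene *Ednrb* were both higher, and the ephrin gene *Efna1* and the receptor gene *Epha1* were both lower. The receptor gene *Epha8* was lower too, but the ephrin family was not uniform, as the ligand gene *Efna5* was higher. Promoters of *Efna5* and *Epha8* are not shown, although *Epha8* also moved with *Efna1*. Each sequence runs from 250 bases before to 50 bases after an annotated gene start (RefSeq, GRCm38.p6), is written 5′ to 3′ on the strand of the gene, and has the letters TAAT or their reverse complement ATTA in capitals, the core that many homeodomain proteins bind.
*Edn1*, chr13:42301226-42301525, + strand: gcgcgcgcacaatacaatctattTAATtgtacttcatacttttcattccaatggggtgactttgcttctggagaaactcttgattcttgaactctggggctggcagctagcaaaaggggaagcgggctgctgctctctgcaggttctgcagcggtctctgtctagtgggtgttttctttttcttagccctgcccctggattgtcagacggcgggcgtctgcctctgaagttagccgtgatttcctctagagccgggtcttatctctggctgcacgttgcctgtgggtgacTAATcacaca
*Ednrb*, chr14:103843652-103843951, − strand: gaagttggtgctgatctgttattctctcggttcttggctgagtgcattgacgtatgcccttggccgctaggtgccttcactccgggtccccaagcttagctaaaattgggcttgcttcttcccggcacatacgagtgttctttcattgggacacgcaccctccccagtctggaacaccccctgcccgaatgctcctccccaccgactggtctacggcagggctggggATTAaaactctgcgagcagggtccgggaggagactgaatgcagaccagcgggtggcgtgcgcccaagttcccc
*Efna1* (start at 89279645), chr3:89279596-89279895, − strand: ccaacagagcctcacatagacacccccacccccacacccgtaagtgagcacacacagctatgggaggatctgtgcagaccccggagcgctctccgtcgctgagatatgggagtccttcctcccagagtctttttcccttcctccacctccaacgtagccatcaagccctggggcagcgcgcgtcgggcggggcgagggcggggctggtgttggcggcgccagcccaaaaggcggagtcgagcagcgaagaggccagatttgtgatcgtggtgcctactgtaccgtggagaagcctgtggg
*Efna1* (start at 89280951), chr3:89280902-89281201, − strand: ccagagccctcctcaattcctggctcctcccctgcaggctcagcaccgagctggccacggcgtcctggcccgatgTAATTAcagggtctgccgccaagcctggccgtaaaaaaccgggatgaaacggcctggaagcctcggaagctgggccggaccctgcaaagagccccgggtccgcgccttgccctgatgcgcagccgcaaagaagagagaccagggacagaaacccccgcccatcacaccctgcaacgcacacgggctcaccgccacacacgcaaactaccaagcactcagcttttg
*Epha1*, chr6:42373219-42373518, − strand: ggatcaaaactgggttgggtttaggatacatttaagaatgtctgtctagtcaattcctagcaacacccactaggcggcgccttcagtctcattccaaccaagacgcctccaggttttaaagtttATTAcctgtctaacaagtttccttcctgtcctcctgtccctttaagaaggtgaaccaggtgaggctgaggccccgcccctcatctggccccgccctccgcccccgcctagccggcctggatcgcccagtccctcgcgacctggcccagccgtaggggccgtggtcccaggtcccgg

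The capitals fall at 2 places in *Edn1*, 1 in *Ednrb*, 1 in *Epha1*, and 2 overlapping places at 1 of the 2 annotated starts of *Efna1*. RefSeq promoters were found for 24 of the 33 genes, 29 in all, and 13 of them (44.8%) held TAAT on either strand, against 58.0% of 32851 mouse promoters of the same length. Among the higher genes 7 of 17 promoters held it, and among the lower genes 6 of 11. A match is a run of letters and says nothing of binding.

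**Figure D1:**
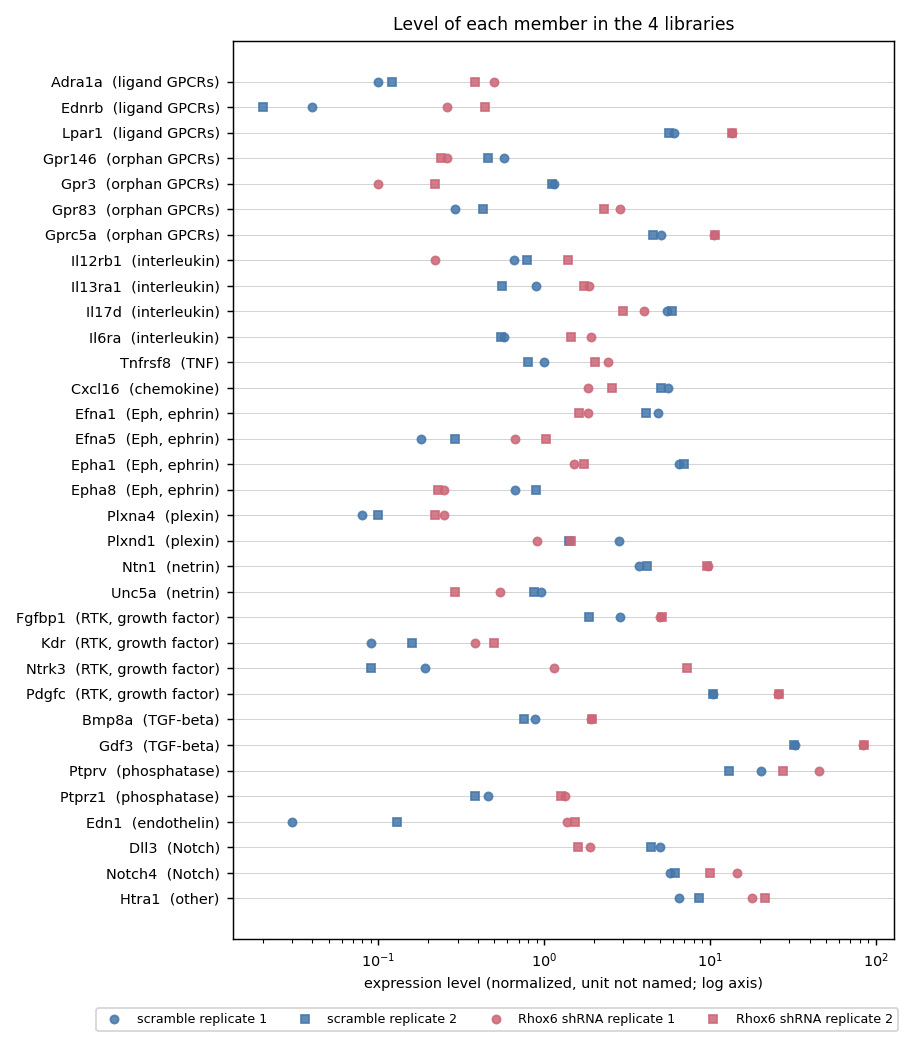
Expression level of each of the 33 genes (rows, with their family) in the 4 libraries on a log axis, in the unnamed unit of the table; circles and squares are replicates 1 and 2, blue *scramble* and red *Rhox6* shRNA. The colors are apart in every row except those of *Il12rb1* and *Plxnd1*; levels of different genes are not to be compared.

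Among the receptors for amines, lipids and peptides, 3 genes were listed and all 3 rose. *Lpar1*, a receptor for lysophosphatidic acid, was at 6.06 and 5.65 in the *scramble* libraries (replicate 1 first, here and below) and at 13.60 and 13.48 after knockdown. Its knockdown libraries were close together and well above the controls, with a ratio of mean levels of 2.31 and a log2 difference of 1.09 (standard error 0.097, adjusted p = 0.000561). *Ednrb*, a receptor needed for neural crest derivatives such as melanocytes, rose from 0.04 and 0.02 to 0.26 and 0.44. The ratio of the means, 11.7, stands on *scramble* levels near the last printed decimal. Its log2 difference of 0.39 (standard error 0.090) did not pass without *scramble* replicate 1 or 2 (0.40 or 0.37, adjusted p = 0.0534 or 0.0637). *Adra1a*, an adrenergic receptor, rose from 0.10 and 0.12 to 0.50 and 0.38, a ratio of 4.0 from low levels. The peptide ligand *Edn1* rose from 0.03 and 0.13 to 1.38 and 1.53. Its log2 difference was 1.19 (standard error 0.10, adjusted p = 0.000521), and it was 1.12 to 1.25 when any library was left out. The ratio of mean levels of *Edn1*, 18.2, again rests on low control levels. On chromosome 13 of GRCm38, 35 of its 2139 exon bases are shared with *Gm47118*, an antisense gene.

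The orphan receptors, for which no ligand is generally agreed, went both ways, with 2 of 4 higher and 2 lower. *Gprc5a*, a gene induced by retinoic acid, rose from 5.05 and 4.54 to 10.55 and 10.71, with a log2 difference of 1.01 (standard error 0.11, adjusted p = 0.000843). *Gpr83* rose from 0.29 and 0.43 to 2.86 and 2.30. Its log2 difference of 1.39 (standard error 0.14, adjusted p = 0.000733) was among the larger of the 33, and both knockdown libraries were far from both controls. *Gpr3*, a constitutively active receptor that holds mouse oocytes in meiotic arrest by raising cyclic AMP, fell from 1.15 and 1.11 to 0.10 and 0.22, a ratio of 0.142. The fall was −0.88 on the log2 scale (standard error 0.099, adjusted p = 0.000993). However, 204 of its 2734 exon bases are shared with *Cd164l2* on the opposite strand, which is itself listed as lower, from a mean level of 4.53 to 0.75. Whether the counting used strand is not given, and without strand the reads of the 2 genes cannot be told apart there. *Gpr146* was at 0.57 and 0.46 in *scramble* cells and at 0.26 and 0.24 in *Rhox6* shRNA cells. This small difference of −0.28 passed with all libraries (adjusted p = 0.0226) but not without *scramble* replicate 1 or *Rhox6* shRNA replicate 1 or 2 (−0.22, −0.29 and −0.26, adjusted p = 0.0667, 0.0667 and 0.0803).

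Interleukin genes and their receptors had 4 listed members, and 2 rose, 1 fell and 1 did not pass. *Il6ra*, which binds interleukin-6 and signals through gp130, rose from 0.57 and 0.55 to 1.91 and 1.45. The *scramble* libraries almost coincided, and the log2 difference was 0.78 (standard error 0.13, adjusted p = 0.00313). *Il13ra1*, a chain of the receptor for interleukin-13, rose from 0.89 and 0.56 to 1.86 and 1.74, with a log2 difference of 0.71 (standard error 0.14, adjusted p = 0.0056). *Il17d*, a secreted cytokine of the interleukin-17 family, went from 5.53 and 5.89 to 3.99 and 2.97 and fell by 0.59 (standard error 0.15, adjusted p = 0.0131). Without *scramble* replicate 1 or 2 it no longer passed (−0.63 or −0.55, adjusted p = 0.0644 or 0.084). *Il12rb1*, a chain of the receptors for interleukin-12 and interleukin-23, was at 0.66 and 0.79 in *scramble* cells, between the *Rhox6* shRNA libraries at 0.22 and 1.39. Its mean level was 0.725 in *scramble* and 0.805 in *Rhox6* shRNA cells, and the log2 difference of −0.01 (standard error 0.32, adjusted p = 0.969) took its sign from whichever knockdown library was kept. It was 0.47 (adjusted p = 0.0374) without *Rhox6* shRNA replicate 1 and −0.50 (adjusted p = 0.0212) without replicate 2.

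*Tnfrsf8*, the TNF receptor superfamily member known as CD30, rose from 1.00 and 0.80 to 2.44 and 2.02 (log2 difference 0.76, standard error 0.14, adjusted p = 0.00389). The membrane-bound chemokine gene *Cxcl16* fell from 5.56 and 5.06 to 1.84 and 2.56. Its fall of 0.99 on the log2 scale (standard error 0.16, adjusted p = 0.00264) kept its call when any 1 library was left out. Of its 3021 exon bases, 552 (18.3%) are shared with *Zmynd15* on the opposite strand, and the reads of the 2 genes cannot be told apart there if strand was not used.

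Ephrins and Eph receptors had 4 listed genes, of which 3 were lower. *Epha1*, a receptor tyrosine kinase of epithelial tissues, was at 6.50 and 6.93 in *scramble* cells and at 1.51 and 1.73 in *Rhox6* shRNA cells. The groups were far apart compared with the spread inside them, and *Epha1* had the largest fall of the 33 genes on the log2(level + 1) scale, by 1.56 (standard error 0.12, adjusted p = 0.000427). The mean *scramble* level was 4.15 times that of the knockdown. *Epha1* lies on chromosome 6 of GRCm38 from 42358487 to 42373268, where 236 of its 3928 exon bases overlap *Zyx* on the other strand. Reads of *Epha1* and *Zyx* cannot be told apart there if strand was not used. *Efna1*, which encodes a membrane-anchored ligand of EphA receptors, fell from 4.83 and 4.09 to 1.84 and 1.62, with a log2 difference of −0.998 (standard error 0.14, adjusted p = 0.00173). *Epha8*, a receptor of the nervous system, fell from 0.67 and 0.89 to 0.25 and 0.23 (−0.52, standard error 0.10, adjusted p = 0.0048). Against these, the ligand gene *Efna5* rose from 0.18 and 0.29 to 0.67 and 1.03. Its log2 difference of 0.58 (standard error 0.13, adjusted p = 0.00779) was 0.51 without *scramble* replicate 1, with an adjusted p of 0.0667.

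In the netrin family, the secreted cue *Ntn1* rose from 3.71 and 4.15 to 9.71 and 9.58. Its ratio of mean levels was 2.45, and the log2 difference was 1.11 (standard error 0.11, adjusted p = 0.0007). *Unc5a*, which encodes a netrin receptor of the repulsive kind, went the other way, from 0.96 and 0.87 to 0.54 and 0.29. The call of *Unc5a* (−0.44, standard error 0.12, adjusted p = 0.0168) was lost without *scramble* replicate 1 or 2 or *Rhox6* shRNA replicate 2 (−0.41, −0.48 and −0.31, adjusted p = 0.0901, 0.0671 and 0.081). Of the semaphorin receptors, *Plxna4* was at 0.08 and 0.10 in *scramble* and at 0.25 and 0.22 in knockdown libraries. This is the smallest called difference, 0.18 (standard error 0.066, adjusted p = 0.0428), and it did not pass when any 1 of the 4 libraries was left out (0.16 to 0.20, adjusted p up to 0.111), nor with the replicate number as a block, where the adjusted p was 0.0886. *Plxnd1*, a plexin of blood vessels, did not pass. Its levels of 2.83 and 1.41 in *scramble* and 0.90 and 1.46 in *Rhox6* shRNA cells overlapped, with a log2 difference of −0.49 (standard error 0.27, adjusted p = 0.129). Without *scramble* replicate 2 this was −0.83 (adjusted p = 0.0452).

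**Figure D2:**
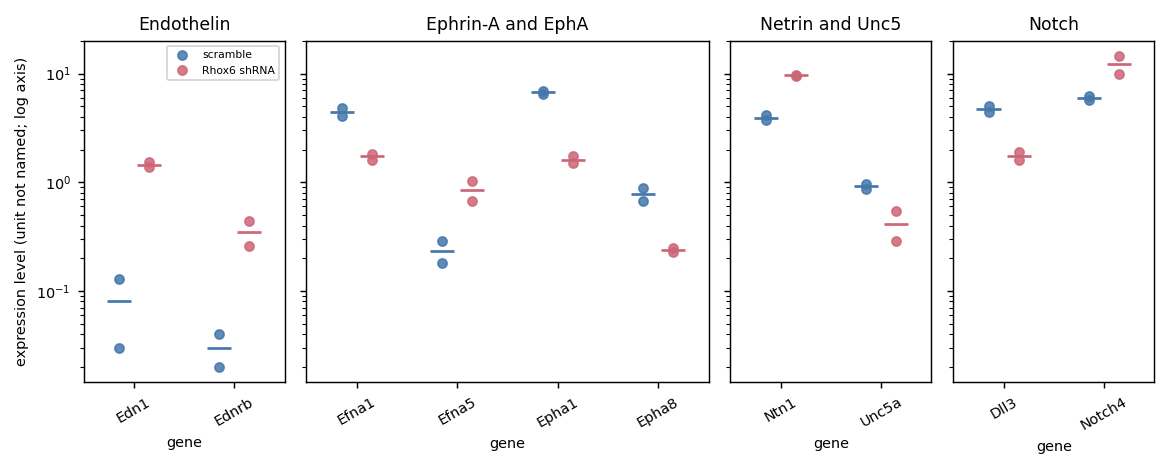
Expression level on a log axis (unit not named) of the listed ligands and receptors of 4 signaling families; dots are the 2 libraries of a group and short lines their mean, blue *scramble* and red *Rhox6* shRNA. Both endothelin genes are higher, *Efna1*, *Epha1* and *Epha8* are lower while *Efna5* is higher, *Ntn1* and *Unc5a* move apart, and so do *Notch4* and *Dll3*.

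Beside the Eph receptors, the pattern took 4 genes of receptor tyrosine kinases, of their growth factors or of a growth factor carrier (*Pdgfc*, *Fgfbp1*, *Kdr* and *Ntrk3*), and these 4 were higher, whereas *Axl* and *Vegfa*, which it did not take, were lower. *Pdgfc*, which encodes a ligand of the platelet-derived growth factor receptor α, rose from 10.37 and 10.42 to 25.83 and 26.00. The libraries of each group nearly coincided, so that its log2 difference of 1.24 (standard error 0.080, adjusted p = 0.000233) stayed between 1.23 and 1.25 when a library was left out. The gene lies on chromosome 3 of GRCm38 from 81036416 to 81214040, and 147 of its 5089 exon bases are shared with the antisense gene *Gm16000*. *Fgfbp1*, whose product releases FGFs from the matrix, rose from 2.86 and 1.87 to 5.01 and 5.12 (log2 difference 0.87, standard error 0.18, adjusted p = 0.00594). *Kdr*, the receptor of vascular endothelial growth factor, rose from 0.09 and 0.16 to 0.38 and 0.50. Its log2 difference of 0.36 was 0.31 without *scramble* replicate 1 (adjusted p = 0.0589). The other listed endothelial marker, *Tek*, was also higher, at 4.36 and 3.49 against 11.51 and 11.83, so 2 of 4 markers were listed, and their part in the result for *Kdr* was not tested.

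*Ntrk3*, the receptor of neurotrophin-3, had the largest difference of the 33 genes and the widest spread. Its levels were 0.19 and 0.09 in *scramble* cells and 1.14 and 7.25 in *Rhox6* shRNA cells. The groups did not overlap, but the knockdown libraries differed by 1.95 from each other on the log2(level + 1) scale, more than the 1.88 between the groups (standard error 0.63, adjusted p = 0.0313). The difference was 0.91 without *Rhox6* shRNA replicate 2 and 2.86 without replicate 1, and it did not pass without *scramble* replicate 1 or 2 (1.95 or 1.82, adjusted p = 0.158 or 0.176). The size of the rise of *Ntrk3* thus rests on a single library.

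**Figure D3:**
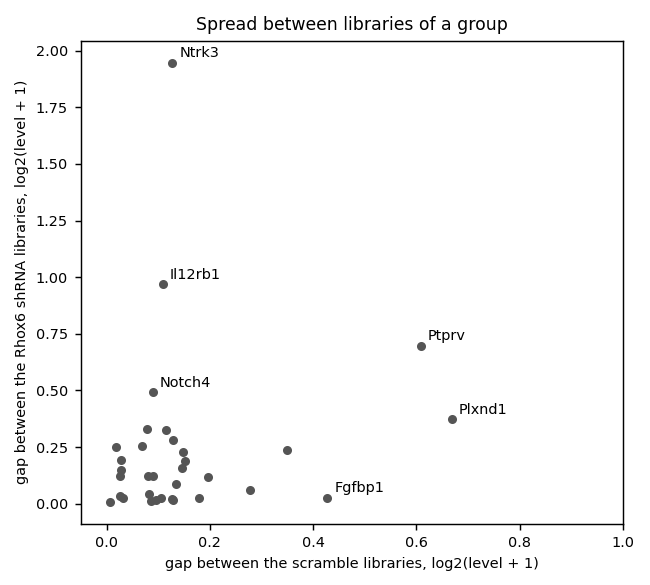
Absolute gap in log2(level + 1) between the *scramble* libraries (horizontal) and between the *Rhox6* shRNA libraries (vertical); each dot is 1 of the 33 genes. Most dots lie near the origin, at medians of 0.109 and 0.121. *Ntrk3* and *Il12rb1* stand out in the knockdown libraries, *Plxnd1* in the *scramble* libraries and *Ptprv* in both groups.

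*Gdf3*, a TGF-β superfamily ligand of pluripotent cells, rose from 32.75 and 32.03 to 83.68 and 85.25. The libraries of a group were within 0.031 of each other on the log2(level + 1) scale, and the log2 difference of 1.36 (standard error 0.061) had the smallest adjusted p of the 33 genes, 0.000149. The ratio of mean levels was 2.61. *Gdf3* lies on chromosome 6 of GRCm38 from 122605403 to 122610087. *Bmp8a*, which encodes a bone morphogenetic protein that acts on germ cells, rose from 0.88 and 0.76 to 1.92 and 1.95 (log2 difference 0.69, standard error 0.12, adjusted p = 0.0031). Its reads may be shared with the close paralog *Bmp8b*, which is not listed.

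Both listed receptor phosphatases were higher. *Ptprz1*, a phosphatase of glia and neural progenitors, rose from 0.46 and 0.38 to 1.34 and 1.27, with a log2 difference of 0.70 (standard error 0.10, adjusted p = 0.00194). *Ptprv* is named after embryonic stem cells in mouse and annotated by GENCODE as a processed transcript. Of its 6987 exon bases, 345 are shared with the antisense gene *Gm10535*. *Ptprv* was at 20.30 and 12.97 in *scramble* cells and at 45.54 and 27.71 in *Rhox6* shRNA cells. Replicate 1 was the higher library in both groups, and the lower knockdown library was not far above the higher control. The log2 difference of 1.08 (standard error 0.30, adjusted p = 0.0169) was 0.78 without *scramble* replicate 2 and 0.74 without *Rhox6* shRNA replicate 1, where it did not pass (adjusted p = 0.131 and 0.0751).

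The Notch family was split. *Notch4*, a receptor of the vascular endothelium, rose from 5.75 and 6.18 to 14.46 and 9.99, with a log2 difference of 0.90 (standard error 0.18, adjusted p = 0.00578). It missed the threshold without *scramble* replicate 1 (0.86, adjusted p = 0.0589). *Dll3*, an atypical ligand that restrains Notch signaling inside the cell that makes it, fell from 5.0 and 4.42 to 1.90 and 1.60. It fell by 1.05 (standard error 0.14, adjusted p = 0.00143), and by 0.98 to 1.13 with any library left out. The protease gene *Htra1*, which belongs to none of these families, rose from 6.53 and 8.59 to 18.00 and 21.40 (log2 difference 1.28, standard error 0.16, adjusted p = 0.0013).

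By role, 14 of the 21 receptor genes were higher, 5 were lower and 2 did not pass, and 6 of the 10 ligand genes were higher and 4 lower. In percent, 66.7% of the receptors and 60.0% of the ligands were higher, against 53.7% of all listed genes. Lower were 23.8% and 40.0%, against 42.9%. The median log2 difference was 0.39 for the receptors and 0.63 for the ligands, against 0.56 over all listed genes. The median absolute difference was 0.71 and 1.03, against 0.98. Low levels reduce a difference on this scale. Of the 33 genes, 9 (27.3%) had mean levels below 1 in both groups, against 10.2% of all listed genes. These were 8 of the 21 receptors and 1 of the 10 ligands, so the medians of the 2 roles are not directly comparable. With a pseudocount of 0.1 in place of 1, all 33 genes kept their call, and the differences of low genes were larger, for example 3.17 for *Edn1*, 1.77 for *Ednrb* and −2.28 for *Gpr3*.

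**Figure D4:**
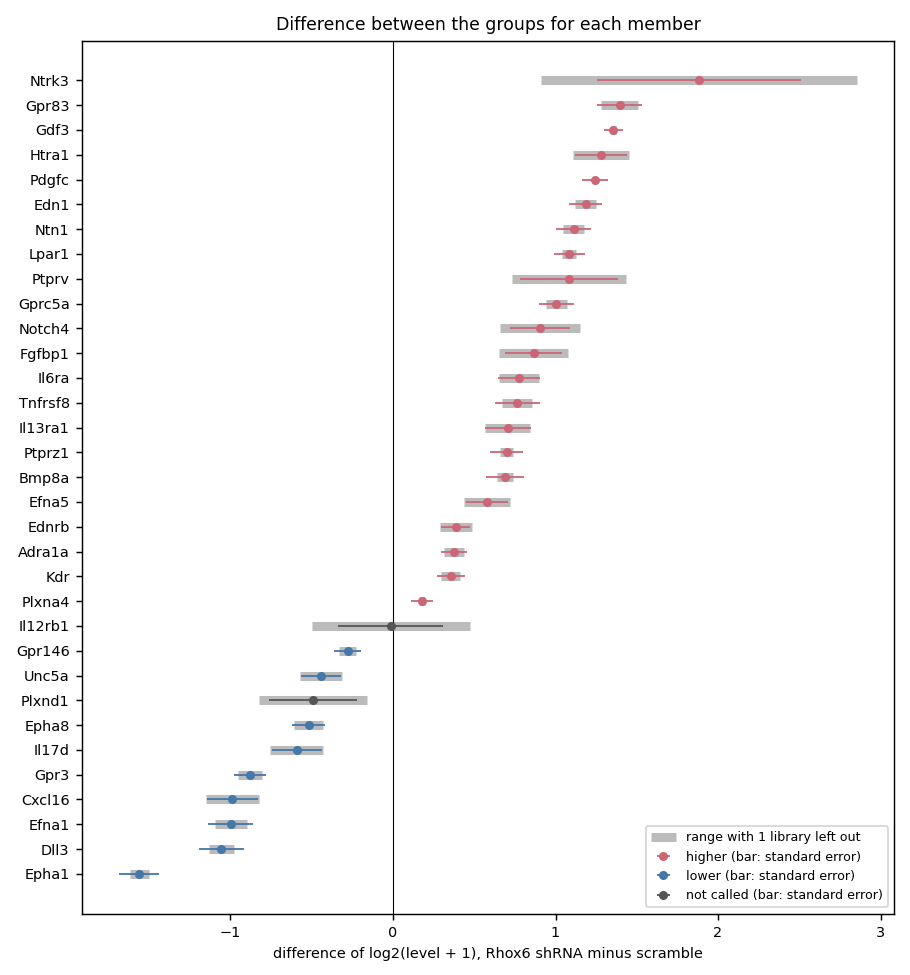
Difference of log2(level + 1) between *Rhox6* shRNA and *scramble* mESCs for the 33 genes, ordered by size. Bars are moderated standard errors from limma and grey bands the range with 1 library left out. *Epha1* is at −1.56 and *Gdf3* at 1.36 with narrow bands, whereas the band of *Ntrk3* runs from 0.91 to 2.86 and that of *Il12rb1* crosses 0.

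Genes that work with these receptors but carry other names were counted from fixed lists. Among all listed genes 53.7% were higher and 42.9% lower, and no list was tested as a set. Of 36 guidance partners, 7 were listed and all 7 rose. *Dpysl3*, which encodes a cytoplasmic mediator of semaphorin signals, rose from 16.83 and 17.13 to 48.44 and 44.85, and *Dpysl4* of the same family rose by a log2 difference of 1.38. *Rnd3*, which encodes a small GTPase that loosens the actin skeleton, rose by 1.04 on the log2 scale, and the adhesion genes *Ncam1*, *Nrcam*, *Slitrk5* and *Flrt2* rose by 0.49 to 1.35. Of 38 genes around TGF-β signaling, 7 were listed, and 6 rose and 1 fell. *Fst*, which encodes the activin-binding protein follistatin, rose from 1.62 and 1.44 to 8.29 and 6.18, and the coreceptor gene *Eng* rose by 1.15 on the log2 scale, whereas *Fstl3*, which encodes another activin inhibitor, fell from 4.29 and 3.13 to 1.07 and 1.51.

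Of 69 genes of cytokine and NF-κB signaling, 6 were listed, and 5 fell. *Nfkb2* fell from 10.44 and 10.14 to 4.88 and 4.60 and its partner *Relb* by 0.77 on the log2 scale. *Ltb*, which encodes a lymphotoxin subunit, fell by 0.96, the receptor gene *Epor* by 0.83 and the feedback inhibitor *Socs3* by 1.06. The exception was *Ngfr*, a neurotrophin receptor of the TNF receptor superfamily, which rose from 7.29 and 6.98 to 15.43 and 15.39. Of 50 other growth factor receptors and ligands, 8 were listed, of which 5 rose (*Ngfr* again, *Tek*, *Ror1*, *Ddr2* and *Gfra1*), 2 fell (*Vegfa*, by 1.28 on the log2 scale, and *Axl*, by 0.76), and *Artn* did not pass (−0.55, adjusted p = 0.0527). *Vegfa* encodes the ligand of the *Kdr* product, and the ligand gene fell while the receptor gene rose.

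Of 48 genes of G protein signaling, *Rgs11* fell by 1.06 and *Ramp2* by 0.80 on the log2 scale and *Gng8* did not pass (−0.14, adjusted p = 0.558). Of 21 genes of FGF feedback 3 were listed and all 3 fell. Their log2 differences were −1.79 for *Ier3*, −0.91 for *Dusp4* and −0.44 for the FGF coreceptor gene *Klb*. *Hes2* was the single listed gene of 27 Notch targets and modifiers and fell by 0.77. These counts stand beside 53.7% higher and 42.9% lower among all listed genes, and no list was tested as a set. Of the 32 related genes called, 3 missed the threshold when 1 library was left out. *Klb* did so without *scramble* replicate 1 (−0.24, adjusted p = 0.179) and without *Rhox6* shRNA replicate 1 or 2 (−0.55 or −0.33), *Hes2* without *scramble* replicate 1 or 2 (−0.57 or −0.98) and without *Rhox6* shRNA replicate 2 (−0.44, adjusted p = 0.149), and *Gfra1* without *scramble* replicate 1 or 2 (1.07 or 0.85, adjusted p = 0.0925 or 0.143).

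**Figure D5:**
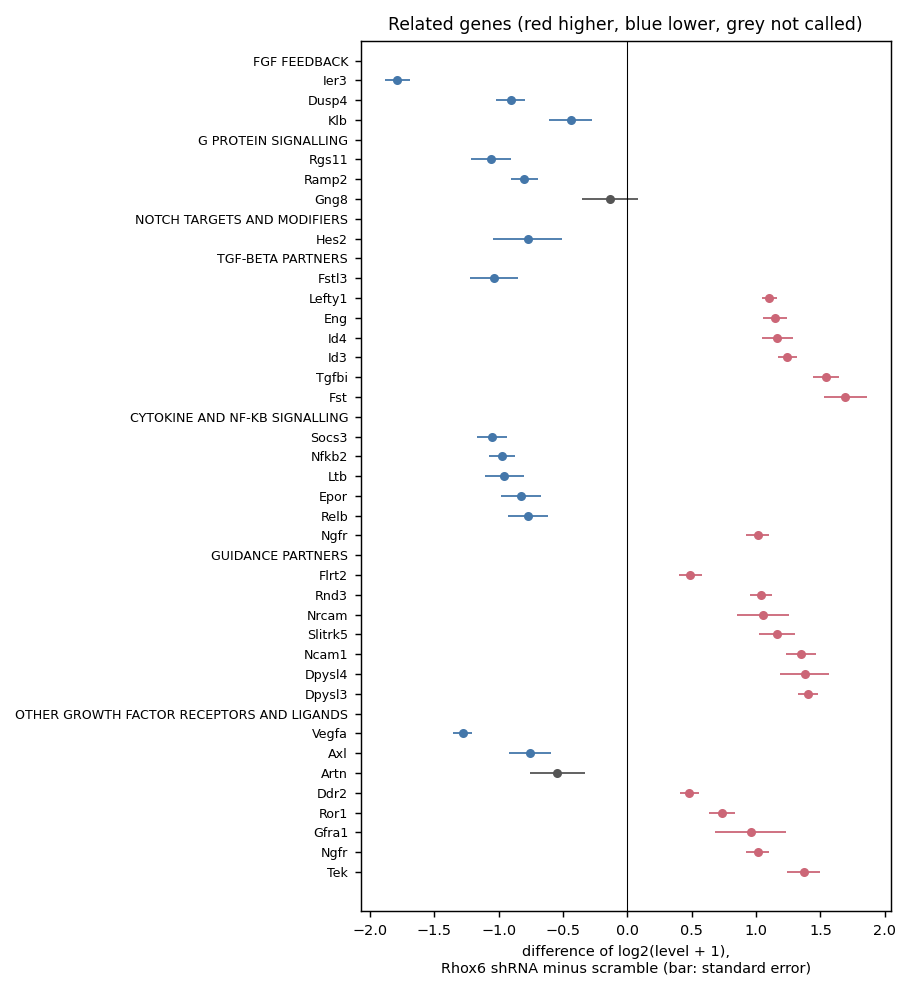
Difference of log2(level + 1) between *Rhox6* shRNA and *scramble* mESCs for the listed genes of the 7 fixed lists, with moderated standard errors from limma. Red is higher, blue lower and grey not called. The 7 guidance partners lie above 0, and the listed cytokine and NF-κB genes lie below 0 except *Ngfr*. Of all 920 listed genes, 53.7% were higher and 42.9% lower.

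As to the cells, 2 of 9 markers of embryonic stem cells were listed (*Nanog* and *Klf4*, both higher), 2 of 5 of primitive endoderm (*Gata6* and *Dab2*, both lower), 1 of 5 of neurons (*Elavl3*, lower), and 0 of 7 of fibroblasts and 0 of 6 of blood cells. A marker that is not listed was not analysed here, and the part of other cell types in the results was not tested.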

How the data were processed

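RNA-seq of 2 *scramble* and 2 *Rhox6* shRNA libraries was analysed, grouped by their labels. The authors deposited 1 table of 920 genes with a normalized signal per library (the expression level, 2 decimals, unit not named). Bowtie 0.12.2 and mm9 are named in the submitters' processing notes. The counter, annotation and strand setting were not given in the sources used here. The table's 6 columns of the authors' own comparison (fold changes, p-values and calls) and 2 columns of group means were not used.

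Levels were taken to log2(level + 1) and fitted by limma (version 3.58.1, R 4.3.3), using a variance trend and Benjamini-Hochberg adjustment across all 920 rows. The fit was tested on simulated data in which most genes were unchanged and none were preselected. That test therefore says nothing of calls on genes already selected on these libraries. Alternatives were another pseudocount, a filter on low levels, scaling to equal sums, no variance trend, a replicate block, and each library left out. Every gene whose higher group mean was at least 1 was to be named with all its levels, and the rest by family. The remaining genes are given with their levels too. The genes and lists were chosen with earlier results of these data known. Gene places came from GENCODE M21 (GRCm38), matched by gene identifier for all 33 genes, and promoters from RefSeq (GRCm38.p6), matched by symbol. They describe the annotation, not the mm9 mapping. An item withheld from the related lists is not reported here.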

Additional observations from a re-analysis of the deposited data

How the results depend on the processing

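No count of genes moved by more than 1.5 times. Without any 1 library, 16 to 21 of the 33 genes were higher (22 with all) and 6 to 8 were lower (9 with all). Over the listed genes, 456 to 477 were higher and 353 to 377 lower. Of the 33 genes, 21 kept their call and direction under every alternative run for them, and 12 did not under at least 1, mostly when a library was left out. Their values stand beside each gene. *Il12rb1*, which was not called, changed sign without *scramble* replicate 2 (0.04) and without *Rhox6* shRNA replicate 1 (0.47), with a range of −0.50 to 0.47. Scaling the libraries to equal sums of the listed genes shifted the log2 differences of single genes by a median of −0.21 over all 920. It turned no direction among the 33 and ended the call of *Plxna4* (0.14, adjusted p = 0.0993). Leaving out the variance trend also ended that call (0.18, adjusted p = 0.116). The low-level filter left 24 of the 33 genes, 17 higher and 6 lower. Replicate numbers are shared between groups by number only. The gaps between replicates 1 and 2 of both groups had a correlation of −0.04 across the 920 genes, which are not independent. With the replicate number as a block, 21 of the 33 genes were higher and 9 lower, and 494 and 402 of all listed genes, and *Plxna4* alone of the 33 lost its call. The depth is unknown, so no limit from read numbers can be given for low levels.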

Other observations

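In GRCm38, 9 of the 33 genes had another listed gene within 100 kb. Of these 11 neighbor pairs, both genes were called in 9, and in 8 of the 9 they moved in the same direction. Neighbors were not counted for the other listed genes, of which many would agree in direction anyway. Whether these counts are unusual is therefore not known. Among the 8 are *Gpr3* and *Cd164l2*, which share exon bases on opposite strands. Their reads cannot be told apart there if strand was not used. Of the 33 genes, 9 share exon bases with a gene on the opposite strand, *Il6ra*, *Unc5a* and *Plxna4* among them. The same limit holds for each of these genes. *Gdf3* and *Nanog*, 97402 bases apart on chromosome 6, both rose, by 1.36 and 1.35 on the log2 scale. *Il6ra* and *She*, 5225 bases apart, rose by 0.78 and 1.10, and *Fgfbp1* and *Cd38* by 0.87 and 1.08. *Dll3* and *Zfp36*, 74546 bases apart, fell by 1.05 and 1.44, *Efna1* and *Trim46* fell by 0.998 and 0.73, and *Epha1* and *Fam131b* fell by 1.56 and 0.50. *Notch4* rose while *Gm20460*, 25981 bases away, fell by 0.50. These pairs are a description of where the listed genes lie, and no test was made of them.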
